A study of Rattus norvegicus with 4 samples.

Results

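The tumour necrosis factor (TNF) superfamily was examined in NR8383 cells, a macrophage line grown from rat lung lavage, after 4 h with the pristine single-walled carbon nanotube NRCWE055 at 11 cm2 of nanotube per cm2 of culture. The genes were taken by a rule on names, set with earlier results of these data known. It took Tnf, Lta, Ltb, Ltbr, Fas, Faslg, Cd27, Cd70, Cd40 and every rat symbol that starts with Tnfsf or Tnfrsf. RefSeq lists 39 such rat genes, of which 33 had a probe that could be matched, 14 ligands and 19 receptors, with 37 probes among the 16581 named genes and 21109 named probes of the array. No probe was matched to Tnfsf8, Tnfsf18, Tnfrsf10b, Tnfrsf13c, Tnfrsf22 or Tnfrsf26. The 4 samples form 1 group, described as biological replicates, at 20 passages of the line. All were exposed and unexposed cells were not analysed here, so none of the values is a response to the nanotubes.

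Ligands of this superfamily are mostly trimeric membrane proteins that can be shed, and their receptors carry cysteine-rich repeats outside the cell. Inside the cell, receptors with a death domain, such as Tnfrsf1a and Fas, can lead to caspase activation, and others recruit TRAF adaptors and activate NF-kB. Macrophages are a main source of TNF, whereas many other members serve the exchange between T cells, B cells and antigen-presenting cells.

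A probe was counted as detected where Agilent's software marked its spot well above the background of that array, and a gene where at least 1 of its probes was. Levels are log2 signals relative to each array's 75th percentile over the probes that all 4 arrays detected, so 0 is that percentile and each unit is a doubling. They describe a probe across arrays and were not compared between genes. Each array detected between 8932 and 9311 named genes. Its 75th percentile lay at a signal of 1756 to 2861, and its lowest detected level at -7.49 to -6.81. The 8 macrophage markers Cd68, Ptprc, Spi1, Csf1r, Itgam, Lyz2, Fcgr1a and Cd14 were detected on all arrays. Of the alveolar macrophage markers Pparg, Fabp4 and Siglec1 were detected, and Car4 and Marco were not.

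Fewer members than array genes at large were measurable in exposed cells, a difference that was not tested. On all 4 arrays 13 of 33 genes (39.4%) were well above background, against 52.4% of all named genes. These were 6 of 14 ligands, namely Tnf, Ltb, Tnfsf9, Tnfsf12, Tnfsf13 and Tnfsf15, and 7 of 19 receptors, namely Tnfrsf1a, Ltbr, Tnfrsf12a, Tnfrsf21, Fas, Tnfrsf4 and Tnfrsf25. A further 3 genes passed on part of the arrays, Lta on 1 and Tnfrsf8 and Tnfrsf11a on 3, and the other 17 passed nowhere. Each array detected 14 or 15 members.

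**Figure D1:**
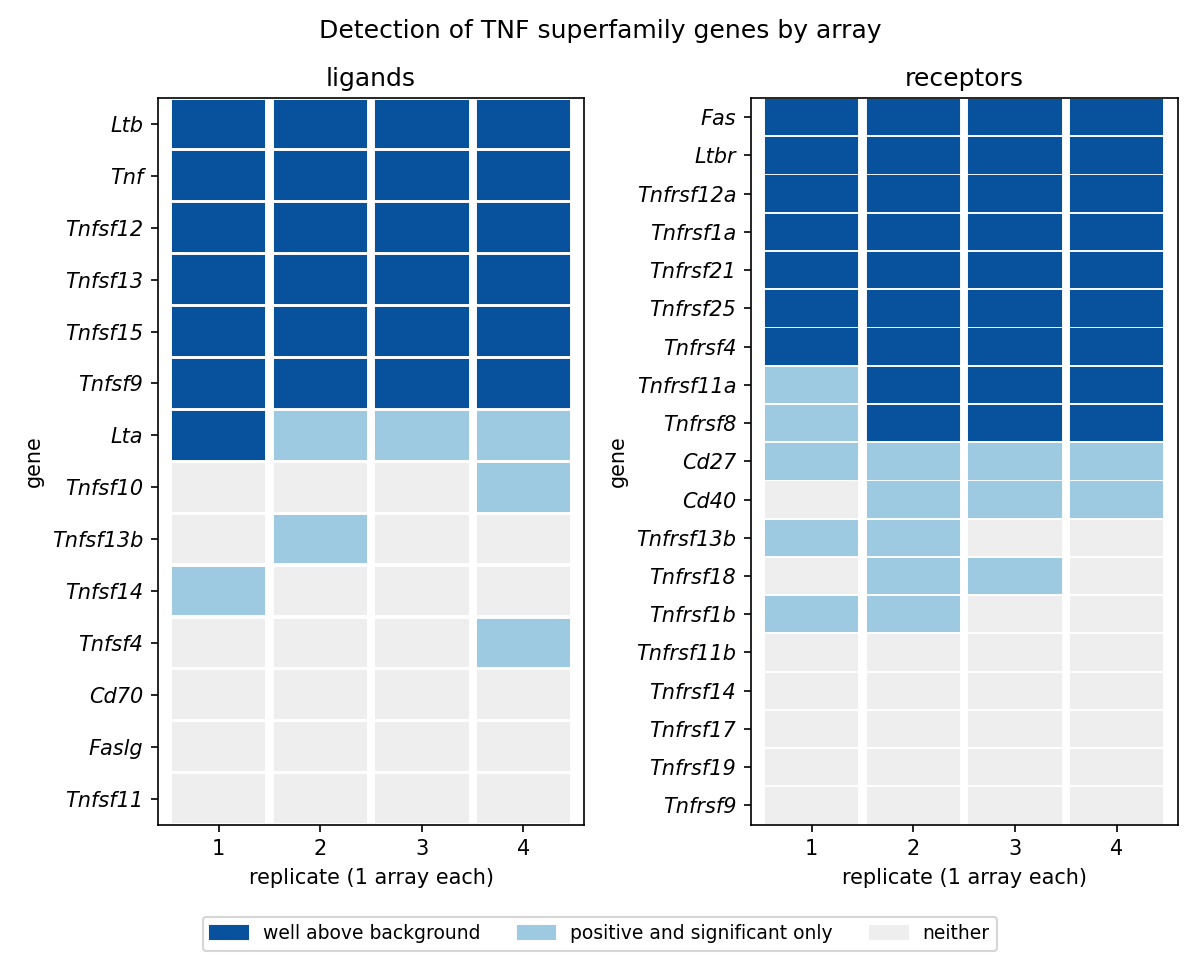
Detection of the 33 TNF superfamily genes (rows) on each of the 4 arrays (columns), with dark blue for well above background, light blue for the looser flag alone (signal positive and significantly different from background) and grey for neither. The dark rows are 6 ligands and 7 receptors, and Lta, Tnfrsf8 and Tnfrsf11a are dark on some arrays.

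Tnf lies between Lta and Ltb, a run of 3 neighbouring genes inside the major histocompatibility region. In exposed cells Tnf and Ltb were detected on all arrays and Lta on 1. The 250 bases before each gene's start are shown to set side by side the promoters of neighbours that differed in detection. They are RefSeq sequences of GRCr8, at chr20:3623277-3623526 on the + strand for Lta, chr20:3626435-3626684 on the + strand for Tnf and chr20:3634055-3634304 on the - strand for Ltb, each written 5′ to 3′ on the gene's strand. Capitals mark matches on either strand to TATAAA (the letters of a TATA box), GAGGAA (a sequence bound by the myeloid factor PU.1, here called its core), TGANTCA (AP-1) and the NF-kB consensus. Only these patterns were searched, at any position in the window. In Lta capitals of a PU.1 and a TATA match run into one another.
Lta: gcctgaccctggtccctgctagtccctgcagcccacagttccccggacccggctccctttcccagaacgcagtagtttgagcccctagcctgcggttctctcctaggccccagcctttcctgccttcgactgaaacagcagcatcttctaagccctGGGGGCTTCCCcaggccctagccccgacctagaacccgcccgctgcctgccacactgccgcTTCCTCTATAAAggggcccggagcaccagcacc
Tnf: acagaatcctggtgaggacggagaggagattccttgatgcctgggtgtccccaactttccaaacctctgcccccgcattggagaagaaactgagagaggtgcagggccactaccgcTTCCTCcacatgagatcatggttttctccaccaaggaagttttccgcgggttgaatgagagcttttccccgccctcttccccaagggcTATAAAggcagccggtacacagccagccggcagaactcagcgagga
Ltb: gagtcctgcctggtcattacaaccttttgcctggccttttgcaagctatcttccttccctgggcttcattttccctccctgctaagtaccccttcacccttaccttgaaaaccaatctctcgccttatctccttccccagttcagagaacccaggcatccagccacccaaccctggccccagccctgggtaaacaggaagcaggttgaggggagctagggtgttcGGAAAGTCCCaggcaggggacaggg

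The window of Tnf held 1 TATAAA match and 1 PU.1 core match. The window of Lta held both as well, with 2 overlapping NF-kB matches. That of Ltb held 1 NF-kB match and no match to the other patterns searched. Promoter windows were found for 25 of the 33 members. A TATAAA match was in 6 of them against 12.9% of all 33469 windows, a PU.1 core match in 10 (23.3% of all), AP-1 in 3 (6.34%) and NF-kB in 5 (6.33%). The first TATAAA match of these 6 windows began between -224 (Tnfsf15) and -27 (Lta) from the gene start, so not each need be a working TATA box. Among the 11 detected members with a window, 6 held a PU.1 core and 2 an NF-kB match, and among the 14 others 4 and 3 did. These matches are descriptions of letters in a short window and no test was made of them.

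Among the ligands, Tnf, the inflammatory cytokine that macrophages release, was measured by 2 probes that match the same transcript, NM_012675. The brighter probe stood at 1.90, 1.91, 1.86 and 1.82 on replicates 1, 2, 3 and 4. The dimmer one stood at -3.53, -3.61, -3.55 and -3.70. Replicate 4 was the lowest on both probes, and each probe varied far less between cultures (SD 0.04 and 0.08, n = 4) than the 5.47 that separated them. Their mean, taken as the level of the gene, was -0.86 ± 0.05 (SD, n = 4) and would be 1.87 with the brighter probe alone. The highest and lowest cultures were 1.09-fold apart.

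Ltb encodes lymphotoxin beta, which holds lymphotoxin alpha at the cell surface. Its level was -0.84, -0.79, -0.76 and -0.91 on replicates 1 to 4, a mean of -0.83 ± 0.07 (SD, n = 4). Lta, the gene of lymphotoxin alpha, was well above background on replicate 1 alone, with a processed signal of 37.4 there. On the scale used for the levels its probe read -5.55 on replicate 1 against -7.20, -6.85 and -7.59 on the others. Under the looser flag it was above background on all arrays, so it sat near the limit of what the array could measure.

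Tnfsf12 and Tnfsf13 are adjacent genes and were among the members closest between cultures. Tnfsf12, which encodes TWEAK, a ligand active in tissue repair and inflammation, was at 1.77, 1.79, 1.79 and 1.75. Tnfsf13, which encodes APRIL, a survival factor of plasma cells, had its highest culture, replicate 3, at 1.08, and replicates 2 and 4 at 1.05 and 1.01, with replicate 1 the lowest. The SDs were 0.02 and 0.04 (n = 4), and no culture stood apart by more than 1.06-fold from another in either gene.

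Tnfsf9, whose product costimulates activated T cells through Tnfrsf9, lay at least 2.53 above the lowest detected level of each array. It was at -4.28, -4.45, -4.26 and -4.27 on replicates 1 to 4, with processed signals of 90.1 to 149. Replicate 2 was the lowest and the other cultures lay between -4.28 and -4.26, for a mean of -4.31 ± 0.09 (SD, n = 4). Tnfsf15, which encodes TL1A, the ligand of Tnfrsf25, was at -4.74, -4.68, -4.67 and -4.16. Here replicate 4 stood 1.42-fold above the nearest other culture, and the SD was 0.27 around a mean of -4.56 (n = 4).

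**Figure D2:**
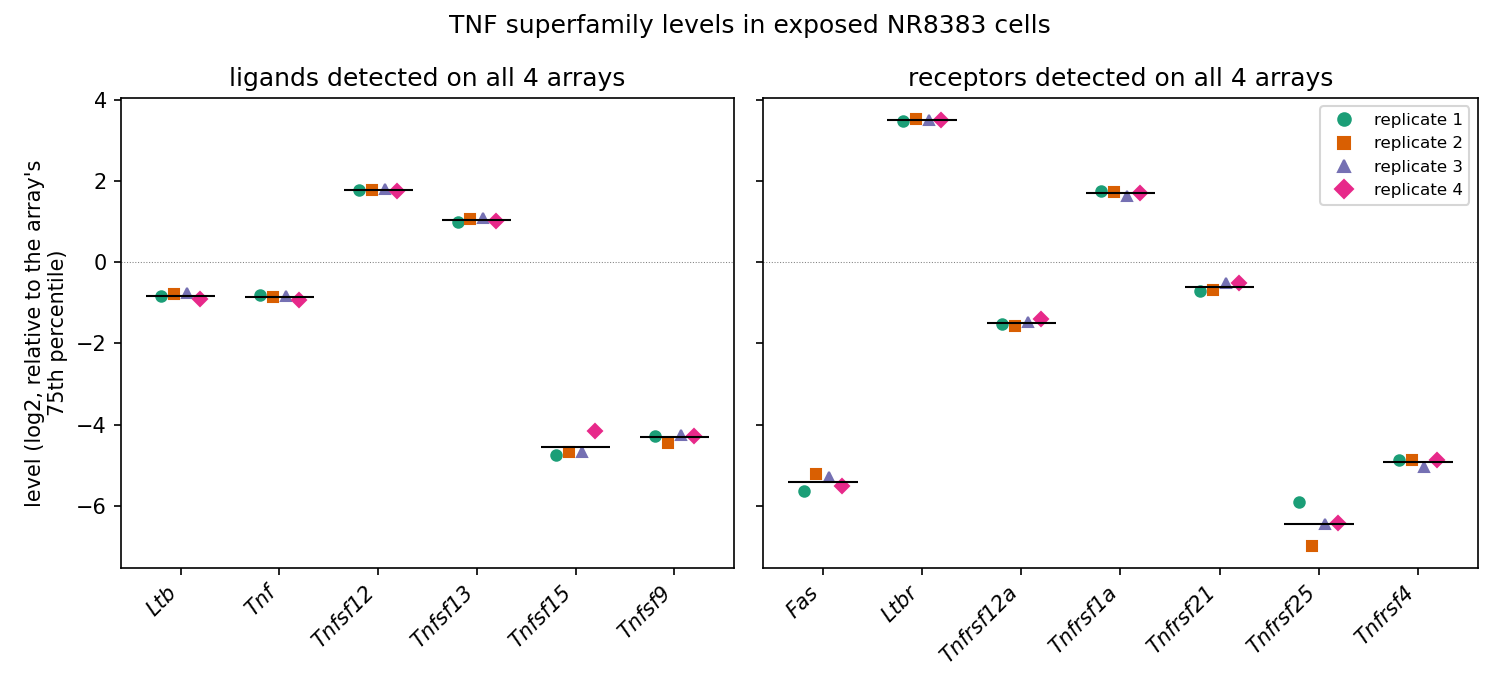
Level of each of the 13 detected members on each array (points, coloured by replicate), as log2 relative to the array's 75th percentile, with the mean of 4 arrays as a line. Points of most genes overlap at this scale, and Tnfsf15, Fas and Tnfrsf25 show visible spread.

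Among the receptors, Tnfrsf1a, the death domain receptor through which soluble TNF acts on most cells, was at 1.76, 1.73, 1.62 and 1.71 on replicates 1 to 4. Replicate 3 was the lowest, for a mean of 1.70 ± 0.06 (SD, n = 4). Tnfrsf1b, the other TNF receptor and one largely of immune cells, did not rise clear of background, with processed signals of 3.99 to 5.05. The looser flag was set for it on 2 arrays. This rests on 1 probe.

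Ltbr, the receptor of lymphotoxin heterotrimers and a route to the alternative NF-kB pathway, was at 3.48, 3.51, 3.49 and 3.50. Tnfrsf12a, the receptor of TWEAK, was at -1.52, -1.57, -1.48 and -1.41. Both probes were printed 10 times per array, so the difference between arrays could be set against the spread between spots. In limma's moderated F test over spots with Benjamini-Hochberg adjustment, the arrays differed for Tnfrsf12a (largest difference 1.12-fold, adjusted p = 9.22e-05) and no difference was found for Ltbr (1.02-fold, adjusted p = 0.777). For Ltbr the SD between single spots of 1 array was 0.05 to 0.08. The test did not match spots by print position, so the spread it used also holds differences between positions. For Tnfrsf12a the same position was the lowest on replicates 2, 3 and 4, at -1.70, -1.60 and -1.47. Such a call is common on this platform, since 65.7% of the 1038 probes printed 10 times and 42.8% of the 1742 printed several times were called. The call for Tnfrsf12a was lost without replicate 4 (limma adjusted p = 0.0995) and with another background correction from median signals (limma adjusted p = 0.816). With 1 array per culture, culture and array cannot be told apart.

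**Figure D3:**
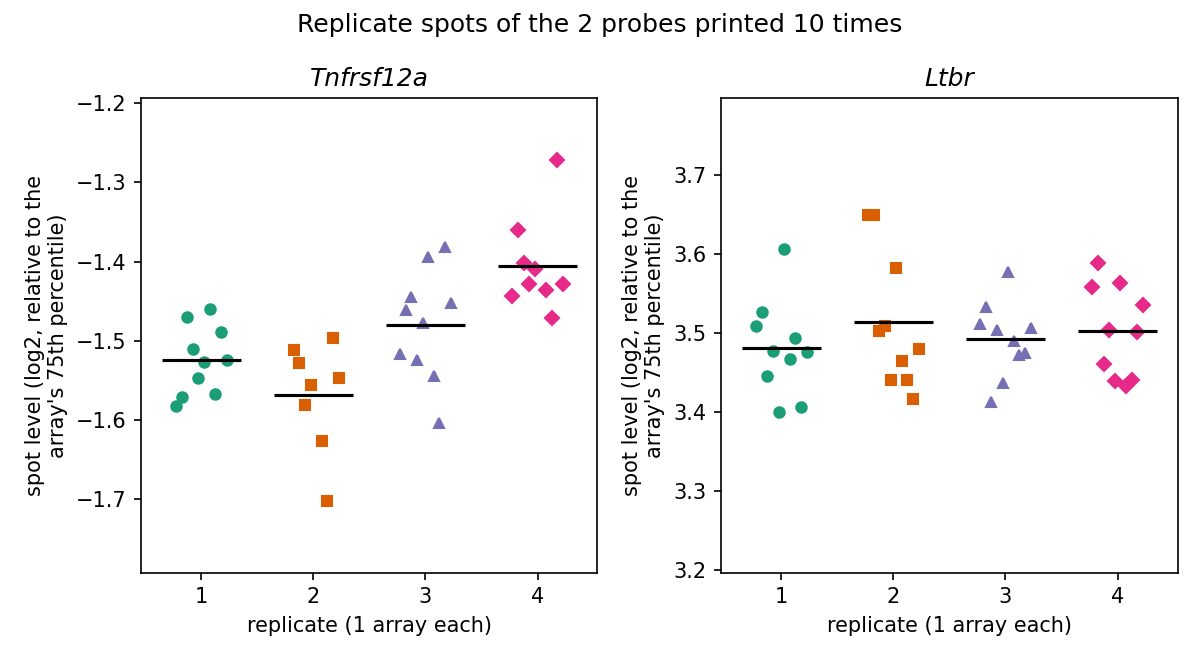
Level of each spot of the Tnfrsf12a and Ltbr probes (points, outlier spots left out) on the 4 arrays, as log2 relative to the array's 75th percentile, with the mean per array as a line. Spots of replicate 4 reach from -1.47 to -1.27 for Tnfrsf12a while those of replicate 2 reach from -1.70 to -1.50, and the Ltbr spots of all arrays overlap.

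Tnfrsf21, a death domain receptor also called DR6, was at -0.71, -0.70, -0.51 and -0.51. Replicates 1 and 2 were alike and so were replicates 3 and 4, and all lay within 1.15-fold. Fas, the receptor that starts apoptosis on binding its ligand, had 1 of 2 probes detected, at -5.64, -5.21, -5.29 and -5.51, and its other probe on none. With the looser flag, which admits that probe, the mean of Fas was -6.50 instead of -5.41. The spread of Fas, an SD of 0.20 (n = 4), was close to the median of 0.195 over 870 other genes within 0.5 of its level.

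Tnfrsf4, a costimulatory receptor of activated T cells, was at -4.88, -4.88, -5.04 and -4.87. Tnfrsf25, the death domain receptor of TL1A, was at -5.90, -7.00, -6.45 and -6.41. It lay within 0.40 of the lowest detected level on 1 array. Its highest and lowest cultures were 2.14-fold apart, which made it 1 of 13 detected members to span over 2-fold, against 1.11% of all detected genes. Tnfrsf25 did not span over 2-fold without replicate 1 or without replicate 2, nor with quantile normalization or normexp correction. Tnfrsf8 and Tnfrsf11a, the receptor of the osteoclast factor Tnfsf11, were detected on replicates 2, 3 and 4. Tnfrsf11a read -6.80 on replicate 1, where it was not called, and -7.08 on replicate 2, where it was. Tnfrsf8 read -7.01 on replicate 1 and between -7.10 and -6.68 on the others. The lowest detected level was itself higher on replicate 1 (-6.81) than on replicate 2 (-7.40), so both genes lay near the floor of the arrays.

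The 17 genes that passed on no array were 7 ligands and 10 receptors. The ligands were Tnfsf4, Tnfsf10 (TRAIL), Tnfsf11 (RANKL), Tnfsf13b (BAFF), Tnfsf14 (LIGHT), Cd70 and Faslg. The receptors were Cd27, Cd40, Tnfrsf1b, Tnfrsf9, Tnfrsf11b (osteoprotegerin, a soluble decoy), Tnfrsf13b, Tnfrsf14, Tnfrsf17, Tnfrsf18 and Tnfrsf19. Their 19 probes gave processed signals of 3.07 to 18.1, below the lowest signal of 20.5 among the 14 probes detected on all arrays. Both sets were defined by a flag on these signals, which were not scaled between arrays, so the gap follows largely from that choice. Tnfrsf8, detected on part of the arrays, was called at 18.2 on replicate 4. The looser flag separated the 17 genes further. This flag was set for Cd27 on 4 arrays and for Cd40, the receptor by which T cells license macrophages, on 3. Tnfrsf1b, Tnfrsf13b and Tnfrsf18 had it on 2, and Tnfsf4, Tnfsf10, Tnfsf13b and Tnfsf14 on 1. The other 8 genes had it on none. Of 308 negative control spots, between 12 and 18 per array (3.90% to 5.84%) carried the same flag, and 1 to 3 were well above background. A gene not well above background has a bound and not a level of 0.

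Ligand and receptor pairs were followed over 26 textbook pairings, of which 22 had probes for both sides. Both genes were detected for 4 of them, TNF with Tnfrsf1a, lymphotoxin beta with Ltbr, TWEAK with Tnfrsf12a and TL1A with Tnfrsf25. For Ltbr, which binds lymphotoxin heterotrimers, the gene of the other subunit, Lta, was detected on 1 array only. Of the member ligands 42.9% were detected and of the receptors 36.8%. The count that these shares would give without regard to pairing was not worked out, so the 4 are not shown to be an excess. In 4 pairings the ligand alone was detected. These were Tnf with Tnfrsf1b, Tnfsf9 with Tnfrsf9, and Tnfsf13 with Tnfrsf13b and with Tnfrsf17. In another 4 the receptor alone was, as for Fas without Faslg and Tnfrsf4 without Tnfsf4. In the other 14 neither gene was detected on all arrays, with genes that lack a probe counted as not detected. Of 33 measured markers of other cell types, 8 were detected on all arrays. Among T cell markers Cd3e, Cd3g, Cd8a and Cd2 were not detected on any array, while Cd3d, Cd4 and Lck were. Among B cell markers Cd79b and Blk were not detected and Pax5 was, and among NK cell markers Ncr1, Prf1 and Klrb1a were not and Gzmb was. S100a8, Pecam1 and Cdh5 made up the 8, and their part in the levels of the members was not tested.

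Several members lie side by side in the genome. Of 13 pairs of superfamily genes with at most 3 protein-coding genes between them in GRCr8, both were detected on all arrays in 3, namely Tnfsf13 with Tnfsf12, Tnf with Ltb, and Ltbr with Tnfrsf1a. In 5 pairs 1 gene was, among them Tnfrsf4 beside Tnfrsf18 and Tnfsf9 beside Cd70, and in 5 neither was. Genes without a probe were counted here as not detected, so some of these pairs were not fully measured. Such pairs were Tnfrsf26 with Tnfrsf22, Tnfsf4 with Tnfsf18, Tnfsf18 with Faslg, and Tnfsf15 with Tnfsf8. No test was made of this count, and no share was taken for neighbouring genes at large.

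The median SD was 0.0697 on the log2 scale over the 13 members and 0.0926 over all 8685 detected genes, and 4 of 13 members lay above the latter. Spread depends on brightness, so each member was also set beside the other genes within 0.5 of its level. Against these, Tnfsf15 (0.269 against 0.142), Tnfrsf25 (0.448 against 0.245), Tnfrsf21 (0.112 against 0.0752) and Fas (0.201 against 0.195) varied more than the median gene. The other 9 varied less, with Ltbr (0.0140 against 0.0551) and Tnfsf12 (0.0192 against 0.0654) at the tight end. Which median was the smaller depended on the arrays and the filter. Without replicate 4 it was 0.0398 for members and 0.0797 for all genes, without replicate 1 it was 0.0971 and 0.0824, and with no filter on dim probes 0.307 and 0.244.

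**Figure D4:**
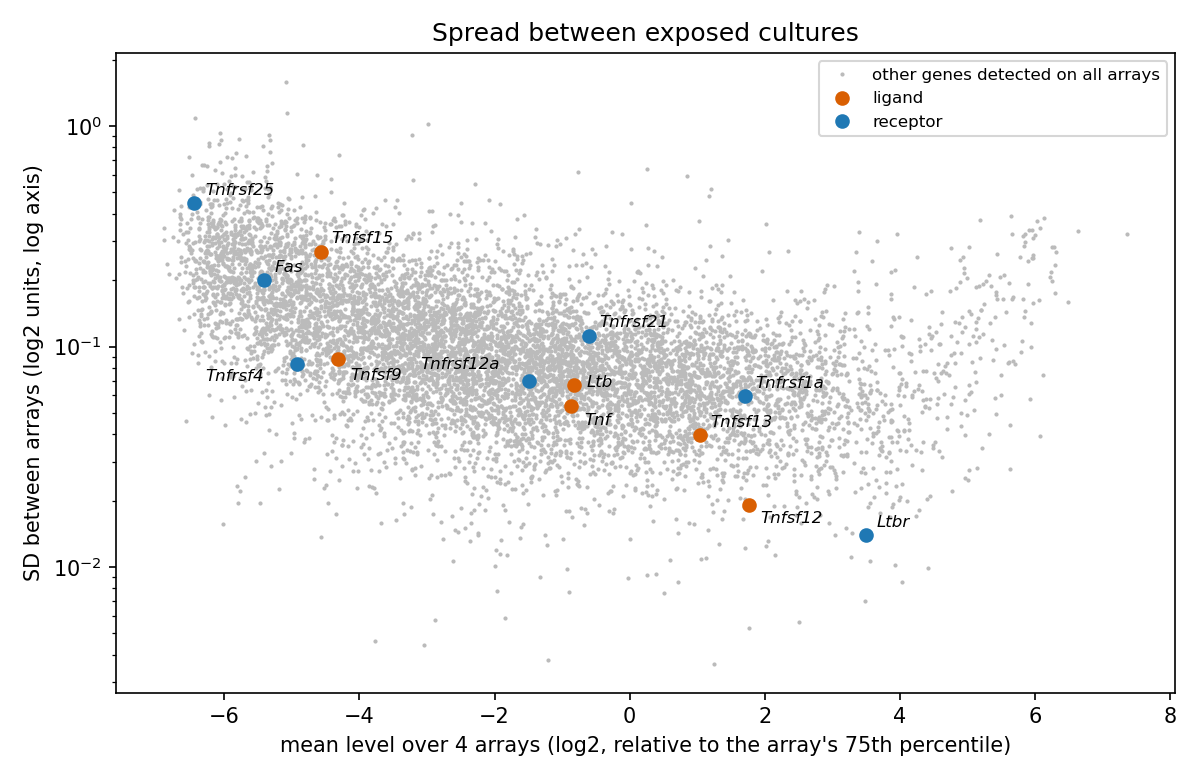
SD between the 4 arrays (vertical, log axis, log2 units) against mean level (horizontal, log2 relative to the array's 75th percentile) for all 8685 detected genes in grey, with ligands in orange and receptors in blue. Tnfrsf25 and Tnfsf15 lie high and Ltbr and Tnfsf12 low among genes of their level.

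The machinery around the receptors was measured with 5 lists of 60 genes, of which 51 had a probe and 45 were detected on all arrays, against 52.4% of all named genes. Of the 45, 0 spanned over 2-fold, close to the 1.11% of all detected genes that did, and their median SD was 0.0814. Of the adaptors, kinases and ubiquitin enzymes that act at the receptors or downstream of them 15 of 18 were detected. No probe was matched to Traf3, Traf5, Tnfaip3, Tab2 or Tab3. Tradd, which docks on the death domain of Tnfrsf1a, was at 1.21 ± 0.05 (SD, n = 4), its partner Traf2 at -1.02 ± 0.11, the kinase gene Ripk1 at -0.55 ± 0.06 and the ubiquitin ligase gene Birc2 at -2.83 ± 0.14. Birc3 and Traf1, both known as NF-kB targets, were well above background nowhere, and Map3k14, the kinase of the alternative NF-kB pathway, was on 2. The looser flag was set for all 3 on 4 arrays.

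The death arm was detected in full, with 6 of 6 measured genes. Fadd, the adaptor of Fas, was at -3.23 ± 0.06 and the initiator caspase gene Casp8 at -3.23 ± 0.08 (SD, n = 4). Cflar, which encodes the inhibitor that competes with it, was at -3.20 ± 0.11, and the necroptosis kinase gene Ripk3 at 1.70 ± 0.13. No probe was matched to Mlkl.

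Genes that cleave members from the membrane were detected for 7 of 8. Adam17, the TNF converting enzyme, was at -2.87 ± 0.11 (SD, n = 4), its regulators Rhbdf2 and Rhbdf1 at 1.06 ± 0.13 and -4.08 ± 0.08, and Adam10 at -4.63 ± 0.18. The inhibitor gene Timp3 was well above background nowhere. Of the genes that control Tnf mRNA 6 of 7 were detected. Zfp36, whose product tristetraprolin destabilises that mRNA, was detected on 3 arrays. Its relatives Zfp36l1 and Zfp36l2 were at -2.44 ± 0.02 and 0.42 ± 0.11, the stabilising protein gene Elavl1 at 2.38 ± 0.05 and Hnrnpd at -2.06 ± 0.33. The levels of Zfp36l1 and Zfp36l2 are means over probes whose lowest and highest lay 2.86 and 2.90 apart.

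NF-kB subunits and TNF-induced genes were detected for 11 of 12. Rela was at 0.14 ± 0.05, Nfkb1 at -2.92 ± 0.05, Nfkb2 at 0.18 ± 0.16 and the inhibitor gene Nfkbia at 0.44 ± 0.06 (SD, n = 4). The level of Nfkb1 is the mean of 2 probes that lay 3.36 apart. Tnfaip6 was well above background nowhere. All these genes answer to many signals besides TNF.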

How the data were processed

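RNA from 4 exposed NR8383 cultures was hybridised to 1-colour Agilent arrays, 1 per culture, on 1 slide and in 1 scan. Groups follow the titles, since the source names of replicates 2 to 4 carry other nanotube numbers. The deposited intensity (processed signal) was background-subtracted and detrended by the authors in the scanner software (per the submitters' processing notes, Agilent Feature Extraction 11.0.1.1; the steps, per the file headers) and not normalized between arrays. The other deposited values used were median spot and background intensities and flags of 0 or 1.

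Control and outlier spots were left out, log2 signals were averaged per probe, and each array was scaled to its own 75th percentile, taken over 17807 probes that all arrays detected, because under 50% of probes were detected. A probe was detected where most of its spots were. Probes were named by RefSeq accession (GRCr8); 24489 of 45598 stayed unnamed. A gene's level is the mean of its detected probes. The test of replicate spots used limma (version 3.58.1, R 4.3.3) and was checked on simulated data, with a threshold of 0.05 after adjustment over all 1742 such probes that every array detected. Coordinates of the array's design, which has another build, are not used. All members are named; of other lists, those not detected on all arrays in the adaptor, shedding, mRNA and NF-kB lists, and the first 4 detected. Members, pairs, lists and tests were chosen with earlier results of these data known; the promoter motifs and the 0.5 level window were chosen after the data were seen. The number of arrays, 4, limits the precision.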

Additional observations from a re-analysis of the deposited data

Results flagged for a closer look

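Of the 13 detected members, 3 had 1 culture standing apart from the other cultures by Dixon's gap ratio, read at the 95% level. Chance gives about 1 in 20 such series, or 0.65 of 13. The share over all 8685 detected genes was not counted, so the 3 are not shown to be an excess in these members. Tnfsf15 was at -4.16 on replicate 4 against -4.74 to -4.67 elsewhere, 1.42-fold above the nearest. Tnfsf9 was at -4.45 on replicate 2 against -4.28 to -4.26, 1.12-fold below the nearest. Tnfrsf4 was at -5.04 on replicate 3 against -4.88 to -4.87, also 1.12-fold below. Each was measured by 1 spot per array, for which the scanner software gives a median error of 10.6% of the signal for Tnfsf15 and Tnfsf9 and of 11.7% for Tnfrsf4. The 3 genes departed on different replicates. Whether culture or spot moved was not tested.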

How the results depend on the processing

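No paired analysis was possible because the samples form 1 group. The count of detected members (13 to 17), of detected signalling genes (45 to 49) and of pairs with both genes detected (4 or 5) stayed within 1.5 times its value under all 12 alternatives that give a value. Detection rested on flags and not on levels. Normexp correction, the other scalings, quantile normalization and the brightest probe therefore could not change these counts. A looser flag, fewer required arrays or a replicate left out could only raise them. Their steadiness was thus largely fixed in advance. With the looser flag Cd27, Lta, Tnfrsf8 and Tnfrsf11a joined the detected members, and without replicate 1 or with detection on at least 3 arrays Tnfrsf8 and Tnfrsf11a did. The median SD of members was 0.307 with no filter on dim probes and 0.0398 to 0.0971 when each replicate was left out in turn. The number of members spanning over 2-fold was 0 with normexp correction and with quantile normalization, 2 with the looser flag, 5 with no filter on dim probes, and 0 to 1 when leaving out replicates. Of the member probes printed 10 times, 0 were called with normexp correction, 2 with quantile normalization, where Ltbr had a limma adjusted p of 0.0246, and 0 to 1 when leaving out replicates. The causes of these changes were not tested. Centring on the median raised the median level of all genes by 2.43 and scaling to all probes by 3.61, so levels have meaning only within 1 scale. Dim signal over background limits what can be said of Tnfrsf25, Tnfrsf8, Tnfrsf11a and Lta.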

Other observations

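Superfamily genes with other symbols, outside the rule that chose the members, were measured on the same arrays. Relt, a receptor of haematopoietic tissue, was detected on all arrays, at -0.78, -0.60, -0.69 and -0.67 on replicates 1 to 4. These are means of 2 probes that lay 3.72 apart. Eda, the ectodysplasin gene, was detected on 1 array. Its receptor gene Edar, the nerve growth factor receptor gene Ngfr and the CD40 ligand gene Cd40lg were well above background nowhere, and no probe was matched to Eda2r.

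No array was the extreme for all members. The highest of the 4 cultures was replicate 1 for 3 of the 13 detected members, replicate 2 for 2, replicate 3 for 4 and replicate 4 for 4, against 26.0%, 21.3%, 23.2% and 29.4% of all detected genes. Replicate 1 was the lowest for 5 of 13 members and for 30.8% of all genes.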
